A study of Mus musculus with 1012 samples.

Results

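Notch signaling genes were followed through 1012 single-cell libraries of mouse cells. The set holds 10 genes, named by symbol, out of the 30452 features of the count table. They are the receptors Notch1, Notch2 and Notch3, the ligands Jag1 and Jag2, the target genes Hes1, Hey1, Heyl and Nrarp, and the glycosyltransferase gene Lfng. Since they were chosen with results of the same cells in view, their own levels and fold changes are given as a description without a test. Of the 10 genes, 9 have a row in the table and 8 have a count in at least 1 cell. Nrarp was not analysed here, and Heyl was at 0 counts in every cell. On GRCm38, Jag1 spans chr2:137081456-137116644, Hes1 chr16:30064384-30067796, Notch1 chr2:26457903-26516663, Notch2 chr3:98013527-98150361 and Lfng chr5:140607320-140615545. Levels are counts over all annotated exons of a gene.

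Notch receptors are membrane proteins that Jagged or Delta-like ligands on a neighbouring cell activate. Ligand binding lets ADAM proteases and then γ-secretase cut the receptor, whose intracellular part enters the nucleus, joins the DNA-binding protein RBPJ and Mastermind coactivators, and turns on genes such as the HES and HEY repressors. Fringe enzymes, among them the product of Lfng, add sugars to the receptor and shift its response between the classes of ligand. The pathway is known for its part in the fate of adipose progenitors and in the activation of macrophages.

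Live-seq libraries were made from cytoplasm that a hollow probe drew out of a living cell, and whole-cell libraries by scRNA-seq of single lysed cells. RAW cells were RAW-G9, a clone of the mouse macrophage-like line RAW264.7 that carries mCherry under the Tnf promoter and a GFP-relA fusion. They were either mock-treated or treated with lipopolysaccharide (LPS), a bacterial cell wall component. Live-seq sampled LPS-treated cells 4 to 5 h after its addition, while the study's methods state no such time for whole cells. Live-seq took 8 mock cells in batch 6, 20 in batch 7, 63 in batch 8_8 and 12 in batch 9_4, while whole mock cells numbered 16 in batch 8_8, 46 in batch 9_1 and 95 in batch scRNA. LPS-treated cells numbered 4, 16, 9 and 10 by Live-seq and 15, 46 and 88 as whole cells, in the same order. Wild-type RAW264.7 cells gave 11 Live-seq libraries after LPS and 1 after mock treatment. IBA cells (44 by Live-seq, and 15, 45 and 93 whole cells in batches 8_8, 9_1 and scRNA) are an immortalized preadipocyte line made from brown fat of young male C57BL6/J mice. ASPCs are primary adipose stem and progenitor cells of subcutaneous fat, taken from female C57BL/6J mice aged 7 to 10 weeks. They were collected before induction of adipogenesis (ASPC_Pre, 61 Live-seq and 60 whole cells) or 2 days into it (ASPC_Post, 37 and 35 cells), induction being by a cocktail of dexamethasone, IBMX, insulin and rosiglitazone. A last set of whole IBA cells was collected 1 h (49 cells) or 4 h (43 cells) after a Live-seq extraction, or without one (70 control cells).

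Each library is 1 cell, and the batch that the labels name was taken as the replicate. Counts were summed over the cells of a batch and state and are given as CPM, counts scaled to a common total of 1000000. A library held from 38451 to 2671609 counts. The cells carried the markers of their labels: mesenchymal markers summed to at least 2612 CPM in every IBA and ASPC sum and to at most 5.63 CPM in RAW sums. Macrophage markers summed to at least 1918 CPM in RAW sums and to at most 79.1 CPM in ASPC sums. In IBA sums they reached 541 CPM, in batch 9_1, where 1 cell labelled IBA had 29279 CPM of macrophage and 0 CPM of mesenchymal markers. Without that cell, the Notch2 level of its sum moved from 153.4 to 155.8 CPM and that of Notch1 from 48.6 to 49.5 CPM.

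Promoters of a pair of members are shown, since Jag1 was at least 2-fold higher 1 h after Live-seq sampling and Lfng was, of the 7 members with a promoter entry, the 1 with a match to TGGGAA, the core letters of the RBPJ site. Both are RefSeq promoters on GRCm38.p6, from 250 bases before to 50 bases after the start, 5′ to 3′ on the strand of the gene. Jag1 lies on the minus strand (chr2:137116471-137116770) and Lfng on the plus strand (chr5:140607091-140607390). Capitals mark the start base and each match to TGGGAA on either strand.
Jag1: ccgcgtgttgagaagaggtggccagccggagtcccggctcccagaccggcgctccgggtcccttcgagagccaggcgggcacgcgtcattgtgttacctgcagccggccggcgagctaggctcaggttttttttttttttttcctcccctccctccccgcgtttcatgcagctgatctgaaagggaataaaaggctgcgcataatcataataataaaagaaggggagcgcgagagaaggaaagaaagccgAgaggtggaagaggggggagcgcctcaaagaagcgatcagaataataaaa
Lfng: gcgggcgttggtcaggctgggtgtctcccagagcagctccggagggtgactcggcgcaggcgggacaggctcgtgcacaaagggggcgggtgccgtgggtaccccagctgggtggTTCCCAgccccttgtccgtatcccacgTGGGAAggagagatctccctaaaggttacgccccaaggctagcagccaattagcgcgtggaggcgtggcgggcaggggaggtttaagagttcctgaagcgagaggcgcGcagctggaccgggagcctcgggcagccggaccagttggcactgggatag

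The Lfng promoter held 2 matches to TGGGAA, with first bases at -135 and -108 from the start and in opposite orientations. The match at -108 overlaps a match to the E-box letters CACGTG that begins at -112. The N-box letters CACNAG were searched as well, with a match at -181, and so was the AP-1 motif spelled TGANTCA, which had none. The Jag1 promoter held no match to any of the 4 motifs. Over 32544 promoters of 300 bases, searched on both strands, 25.4% held the RBPJ letters, 7.17% the E-box, 42.6% the N-box and 7.79% the AP-1 motif. A match is a run of letters, not a measured site. The promoters of Notch1, Notch2, Notch3, Jag2 and Nrarp were searched as well and held no TGGGAA. Those of Hes1, Hey1 and Heyl were not searched.

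Notch2 was the receptor found in every cell type. Its level in whole cells was 215.8, 143.7 and 153.8 CPM in mock RAW cells (batches 8_8, 9_1 and scRNA) and 226.2, 181.8 and 433.4 CPM after LPS. LPS-treated cells were higher in each batch, but the groups overlapped, since the mock sum of batch 8_8 lay above the LPS sum of batch 9_1. The fitted difference was 0.81 ± 0.30 on the log2 scale (SE, 3 batches), and 0.32 ± 0.28 without batch scRNA. IBA cells had 170.5, 153.4 and 140.7 CPM in the same batches. ASPC_Pre cells had 66.9 CPM in batch 8_8 and 53.2 CPM in batch 9_1, below every IBA and RAW sum, and ASPC_Post cells had 154.3 CPM. Counts of Notch2 were found in 98.7% of mock RAW, 100% of LPS-treated RAW, 99.3% of IBA and 68.3% of ASPC_Pre whole cells.

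Notch1 was found in adipose cells and hardly in RAW-G9 cells. IBA whole cells had 24.8, 48.6 and 54 CPM (8_8, 9_1 and scRNA), and ASPC_Pre cells had 20.2 and 6.99 CPM (8_8 and 9_1). Every IBA sum of these batches lay above the ASPC_Pre sums, with a fitted log2 difference of 1.43 ± 1.11, which ran from 0.08 without batch 9_1 to 3.01 without batch 8_8. Unsampled IBA cells of batch 8_1, which were not in that fit, had 11.1 CPM, within the ASPC_Pre values. Among whole RAW-G9 cells, 0 mock cells had a count, which allows a level of up to 0.0467 CPM (3 counts over all mock cells), and 2 LPS-treated cells did. By Live-seq, 0 mock and 0 LPS-treated RAW-G9 cells had a Notch1 count.

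Notch3, a receptor known from mural cells, was low in most states. The level was 0.208, 4.86 and 6.73 CPM in IBA and 0.73 and 3.33 CPM in ASPC_Pre whole cells, which overlap. ASPC_Post cells had 19.9 CPM, the highest whole-cell sum of this gene. RAW-G9 whole cells had 1 Notch3 count in each treatment.

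Per kb of exon, Notch2 led among the receptors in each whole-cell state. Its mean level was 15.9 CPM per kb in mock RAW, 26 in LPS-treated RAW, 14.4 in IBA, 5.57 in ASPC_Pre and 14.3 in ASPC_Post cells. Notch1 followed in IBA cells with 2.98 and in ASPC_Pre cells with 0.955 CPM per kb. In ASPC_Post cells, Notch3 had 2.46 and Notch1 2.31 CPM per kb, values from 1 batch.

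**Figure D1:**
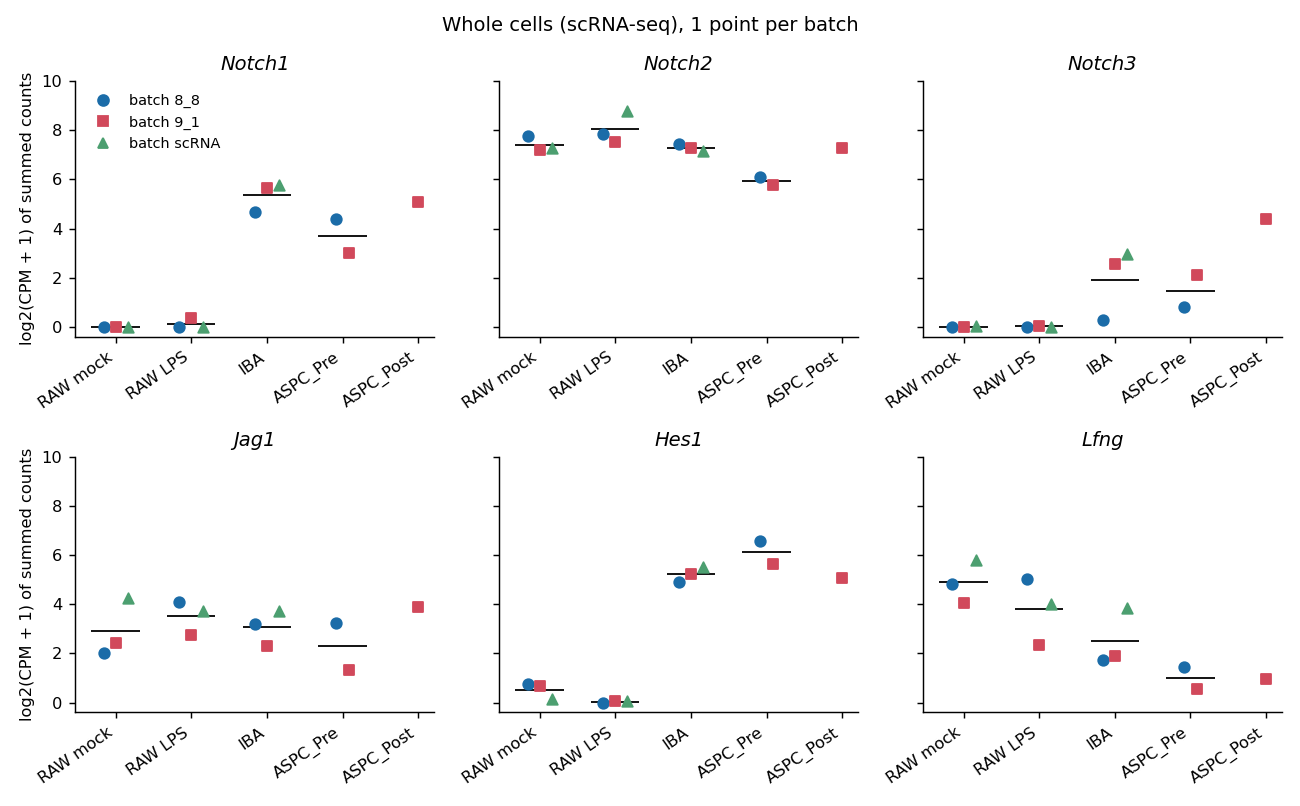
Level of 6 Notch genes in whole cells, as log2(CPM + 1) of the summed counts, with 1 point per batch and state and a line at the mean of the points where there is more than 1. Notch2 is high in all 5 states, Notch1 and Hes1 are at or near 0 in RAW cells, and Notch3 is highest in ASPC_Post cells (19.9 CPM).

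Jag1, which encodes a ligand, was low in all whole-cell states. Mock RAW cells had 3, 4.34 and 18.1 CPM and LPS-treated cells 16, 5.77 and 12.3 CPM (8_8, 9_1 and scRNA). The direction differed between batches, with LPS-treated cells higher in 2 and lower in 1. IBA cells had 8.13, 3.97 and 12.2 CPM and ASPC_Pre cells 8.51 and 1.52 CPM, which overlap as well. Jag1 counts were found in 38.2% of mock RAW, 43.6% of LPS-treated RAW, 43.1% of IBA, 25% of ASPC_Pre and 54.3% of ASPC_Post cells. Jag2, the other Jagged gene, had 123 counts in 17 cells of the whole series and at most 4.36 CPM in any sum.

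Hes1, a repressor gene that Notch activation switches on in many tissues, was found in most adipose cells and in few RAW-G9 cells. IBA whole cells had 28.8, 36.1 and 45.1 CPM (8_8, 9_1 and scRNA), ASPC_Pre cells 94.8 and 48.4 CPM (8_8 and 9_1) and ASPC_Post cells 32.2 CPM. Both ASPC_Pre sums lay above the IBA sums of these batches. The log2 difference of IBA from ASPC_Pre was -1.05 ± 0.63 and was -0.21 ± 0.81 without batch 8_8. Unsampled IBA cells of batch 8_1, outside that fit, had 53.4 CPM, above 1 of the ASPC_Pre sums. Among whole RAW-G9 cells, 3 mock and 2 LPS-treated cells had a Hes1 count. Per kb of exon, Hes1 had 35.2 CPM in ASPC_Pre and 18 CPM in IBA cells. Hey1, a related repressor gene, had counts in 18 cells of the whole series.

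Lfng was highest in mock RAW cells. Its level was 27.5, 15.4 and 55.1 CPM in mock and 31.2, 4.12 and 15 CPM in LPS-treated whole cells (8_8, 9_1 and scRNA). LPS-treated cells were lower in 2 batches and higher in batch 8_8, and the groups overlapped. The log2 difference was -0.90 ± 0.67, and -1.70 ± 0.41 without batch 8_8. With all batches pooled, counts were found in 84.7% of mock cells (95% exact binomial interval 78.1% to 90%) and 45.6% of LPS-treated cells (37.5% to 54%). By batch, the shares were 68.8%, 80.4% and 89.5% of mock cells and 73.3%, 45.7% and 40.9% of LPS-treated cells (8_8, 9_1 and scRNA). Batch 8_8 thus did not show the lower share after LPS. With each cell thinned to 100000 counts, the pooled shares were 75% and 31.5%. Such binomial intervals, here and below, cover the drawing of cells and not the spread between batches. Reads carry no molecular identifiers, so the Poisson intervals below cover the counting of reads only. They leave out amplification and the spread between cells and batches, and are too narrow where a few cells hold most of the counts. IBA cells had 2.29, 2.73 and 13.5 CPM, and no ASPC sum of whole cells exceeded 1.7 CPM. Per kb of exon, mock RAW cells had 13 CPM of Lfng beside 15.9 CPM of Notch2.

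For 5 members, the genes with the most similar whole-cell pattern were taken from 13348 genes outside the Notch lists, by Pearson's r of log2(CPM + 1) over 12 sums of batch and state, which share batches and cell types. Notch1 was most like Msx1, Smoc2 and Dnm3os (r = 0.99 each). Notch3 was most like Igfbp3 (0.97), Garem1 and 2310001H17Rik (0.96 each). Hes1 was most like Syde1 (1.00), Tpm2 and Epb41l3 (0.99 each). The closest were less close for Notch2, with Prss16 (0.92), Atp10d (0.91) and Mtdh (0.89), and for Jag1, with Dcun1d1 (0.87), March6 (0.85) and Fnip1 (0.84).

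After induction of adipogenesis, the receptors and Jag1 had higher levels in ASPCs and Hes1 a lower one. Each technique has 1 batch with both states, so these differences have no replicate check. In whole cells of batch 9_1, Notch1 went from 6.99 CPM (95% Poisson interval 5.98 to 8.12) to 32.9 CPM (30.3 to 35.8), and Notch2 from 53.2 to 154.3 CPM. Notch3 went from 3.33 to 19.9 CPM and Jag1 from 1.52 to 13.7 CPM. These are ratios of 4.71, 2.9, 5.98 and 9.01 for Notch1, Notch2, Notch3 and Jag1. Of 9361 genes at 10 CPM or more in either state, 14% were at least 2-fold higher in ASPC_Post cells and 11.2% at least 2-fold lower. Hes1 went from 48.4 to 32.2 CPM, a ratio of 0.664. The list of mural markers, with 99% or more of its counts from Acta2, a smooth muscle actin gene, had 3938 CPM before and 286.5 CPM after induction. The median mitochondrial share of counts per cell was 3.64% before and 8.71% after induction in this batch. The part of Acta2 and of the mitochondrial share in these levels was not tested.

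Live-seq of batch 9_4 had the same directions, with lower levels of the receptors and Jag1 than in whole cells. Notch1 went from 1.89 to 8.45 CPM, Notch2 from 15.8 to 46.9 CPM and Jag1 from 0.692 to 2.75 CPM. Hes1 went from 64.1 CPM (60.2 to 68.1) to 23 CPM (20.7 to 25.4). Notch3 had 19 counts before and 35 after induction. The median mitochondrial share was 3.03% before and 8.2% after, and its part was not tested here either. In this technique, 13.5% of 8785 genes were at least 2-fold higher and 17.9% at least 2-fold lower. The labels mark 9 complete pairs of ASPC libraries as the same cell sampled at both times, and the barcodes by which the study checked such pairs were not used here. In these pairs, Hes1 had a count in 6 before and in 2 after induction, and was lower at the later sampling in 6 and higher in none. Notch2 was higher at the later sampling in 5 of the 9 cells and lower in 2.

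Single cells weighed heavily on the Live-seq sums. IBA cells had 8.04, 20.8 and 29.7 CPM of Notch1 and 232, 31.9 and 93.4 CPM of Notch2 in batches 7, 8_8 and 9_4. Hes1 had 0, 5.78 and 17.1 CPM there, and was found in 20.5% of IBA cells by Live-seq against 71.9% of IBA whole cells. The median number of genes per cell was 4626 and 9210, respectively. ASPC_Pre cells had 281 CPM of Hes1 and 150 CPM of Jag1 in batch 8_8 against 64.1 and 0.692 CPM in batch 9_4. In batch 8_8, the Jag1 counts came from 3 of 18 cells, with 54% from a single cell. That sum also had 8323 CPM of 12 immediate early genes, where batch 9_4 had 795 CPM, and a median of 1635 genes per cell against 6057. Their part in the Jag1 and Hes1 levels was not tested.

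RAW-G9 cells by Live-seq had 0, 91.8, 78.6 and 74.7 CPM of Notch2 after mock treatment and 1330, 362, 52.4 and 90.3 CPM after LPS (batches 6, 7, 8_8 and 9_4). The value of 1330 CPM rests on 1 of 4 cells, which held 98.5% of the Notch2 counts. The log2 difference was 1.70 ± 1.53, with LPS-treated cells higher in 3 batches and lower in 1. Lfng had 0, 26.9, 8.74 and 31.8 CPM in mock and 0, 0.302, 6.29 and 1.04 CPM in LPS-treated cells. LPS-treated cells were lower in the 3 batches with counts, at a log2 difference of -2.83 ± 2.39, which was -5.28 ± 2.47 without batch 8_8. Lfng was found in 34% of mock cells (24.9% to 44%) and in 7.69% of LPS-treated cells (1.62% to 20.9%). Jag1 had 70.7 CPM in mock cells of batch 7, all of it from 1 cell at 2059 CPM. In that batch LPS-treated cells had 72.7 CPM, from 4 of 16 cells.

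Wild-type RAW264.7 cells after LPS stood apart from RAW-G9 cells in Notch1 and Jag1. Their sum had 34.3 CPM of Notch1 (29.4 to 39.7), from 2 of 11 cells, where no RAW-G9 cell had a Live-seq count. A single cell held 69.7% of these Notch1 counts. Jag1 had 273 CPM (259 to 288), from 5 of 11 cells, where RAW-G9 sums after LPS ran from 0 to 72.7 CPM. A single cell held 43.9% of these Jag1 counts. The highest wild-type cell had 1230 CPM of Jag1, below the RAW-G9 mock cell at 2059 CPM. The wild-type cells form a batch of their own, so line and batch cannot be told apart.

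**Figure D2:**
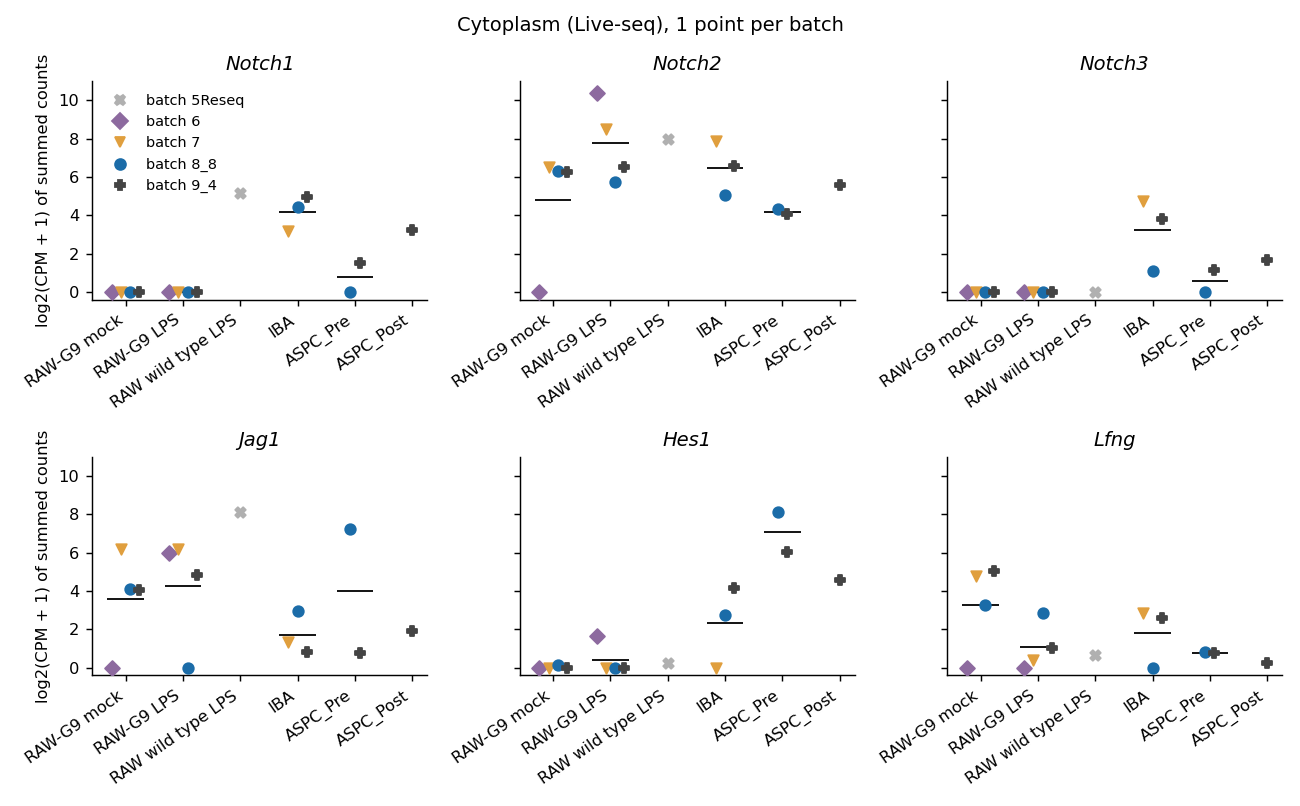
Level of the same 6 Notch genes in cytoplasm taken by Live-seq, as log2(CPM + 1) of the summed counts, with 1 point per batch and state and a line at the mean of the points where there is more than 1. Batches lie further apart than in whole cells, as for Notch2 in LPS-treated RAW-G9 cells (52.4 to 1330 CPM), and wild-type RAW cells stand above RAW-G9 for Notch1 and Jag1.

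The IBA cells collected after sampling address whether drawing cytoplasm changes the cell left behind. All came from batch 8_1 and were picked by serial dilution, so each time is 1 sample without a replicate and there is no test. Among the 9 members measured, Notch1, Notch2, Jag1 and Hes1 reached 10 CPM in at least 1 of these groups.

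Jag1 was higher 1 h after sampling and close to the control at 4 h. It had 8.24 CPM in control cells (95% Poisson interval 7.14 to 9.46), 59.7 CPM at 1 h (56.4 to 63) and 11.3 CPM at 4 h (9.73 to 13.1). The ratio of 1 h to control was 7.24. It was the 1 member of 4 that reached 10 CPM and was at least 2-fold higher at 1 h, and none of the 4 was 2-fold higher or lower at 4 h. Among all genes at 10 CPM or more in either group, 2.29% of 8807 were at least 2-fold higher and 4.34% at least 2-fold lower at 1 h. At 4 h, 2.63% of 8816 genes were higher and 5.73% lower. Because the members were chosen on these cells, nothing is read from their count.

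Jag1 counts were present in more cells at 1 h, while a few cells held most of the counts. Counts were found in 27.1% of control cells (exact binomial interval 17.2% to 39.1%), 59.2% of cells at 1 h (44.2% to 73%) and 32.6% at 4 h (19.1% to 48.5%). With cells thinned to 100000 counts, the shares were 15.6%, 44.7% and 22%. Single control cells ran from 0 to 120 CPM with a median of 0, cells at 1 h from 0 to 913 CPM with a median of 3.74, and cells at 4 h had a median of 0. At 1 h, 7 of 49 cells had 100 CPM or more and held 85.5% of the Jag1 counts. In control and at 4 h, 1 of 70 and 1 of 43 cells reached that level, with 36.3% and 30% of the counts. The top cell at 1 h held 25.7% of the counts. Without the top cell of each group, the levels were 5.38, 45.1 and 8.1 CPM.

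**Figure D3:**
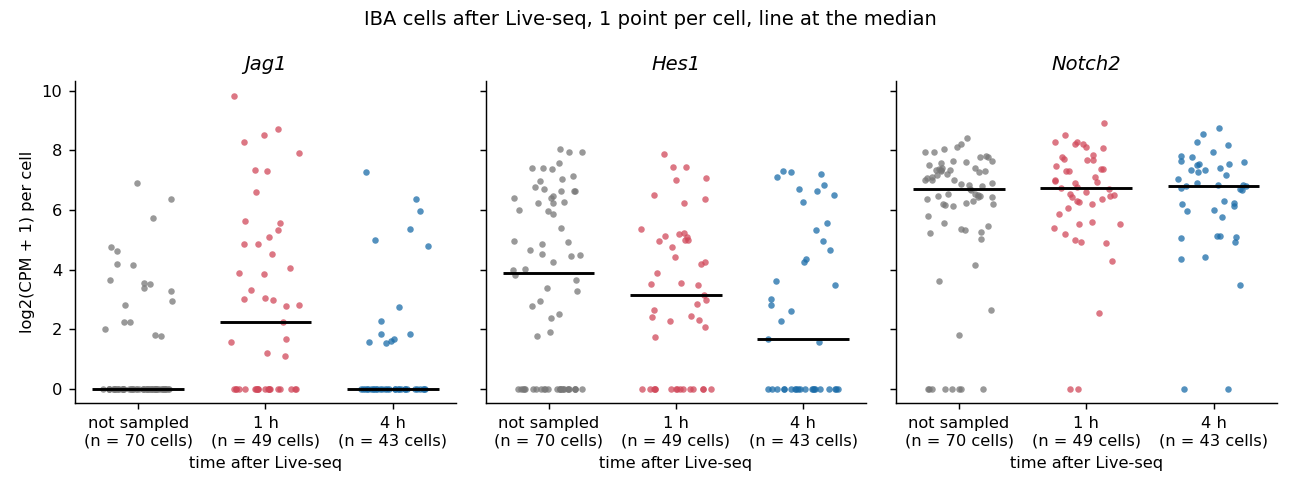
Jag1, Hes1 and Notch2 in single IBA cells that were not sampled or were collected 1 h or 4 h after Live-seq, as log2(CPM + 1), with 1 point per cell and a line at the median. The Jag1 median leaves 0 only at 1 h, at 3.74 CPM, while the Notch2 medians are 102.3, 106.2 and 110.4 CPM.

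Unsampled IBA whole cells were available in 4 batches, 3 of sorted cells and the picked control. Over these, Jag1 ran from 3.97 to 12.2 CPM with a mean of 8.13 ± 3.34 CPM (SD, n = 4). The value at 1 h lay above all 4 and the value at 4 h within them. Of 10024 genes at 10 CPM or more, 14.7% lay above their unsampled range at 1 h and 27.4% below it, so a place outside that range was common. At 4 h, 14.3% lay above and 27.4% below.

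Hes1 was lower than the control at both times. It had 53.4 CPM in control cells (50.5 to 56.4), 28.9 CPM at 1 h (26.7 to 31.2) and 32.1 CPM at 4 h (29.3 to 35). Over the 4 unsampled sums it ran from 28.8 to 53.4 CPM, with the control of this experiment as the highest. Both later values thus lay within the spread of unsampled IBA cells between batches. Counts were found in 64.3% of control cells (51.9% to 75.4%), 69.4% at 1 h (54.6% to 81.7%) and 53.5% at 4 h (37.7% to 68.8%), and these intervals overlap. The medians over cells were 13.8, 7.8 and 2.15 CPM.

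Receptor levels were near the control. Notch2 had 118.5 CPM in control cells (114.3 to 122.9), 137.6 CPM at 1 h (132.7 to 142.6) and 132.3 CPM at 4 h (126.7 to 138.1), within the unsampled range of 118.5 to 170.5 CPM. Notch1 had 11.1, 11.3 and 11.1 CPM, at the low end of its unsampled range of 11.1 to 54 CPM. Notch3 had 26, 23 and 7 counts, those of the control from a single cell. The receptor sums of these cells therefore differed by less than the unsampled batches did.

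The other members were too sparse for more than counts. Jag2 had 10, 0 and 12 counts in control, at 1 h and at 4 h, and Hey1 had 53, 24 and 38 counts, each from at most 5 cells. Lfng had 61 counts in 11 control cells (2.5 CPM), 28 in 4 cells at 1 h (1.29 CPM) and 4 in 2 cells at 4 h (0.252 CPM). Both later Lfng values lay below the unsampled range of 2.29 to 13.5 CPM. At 4 h, Jag2 (0.755 CPM) and Hey1 (2.39 CPM) lay above their unsampled maxima of 0.445 and 2.17 CPM. Over the 8 members with a count, the median log2 fold against control was -0.25 at 1 h and 0.05 at 4 h, beside -0.05 and -0.03 over all 22971 genes with a count.

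**Figure D4:**
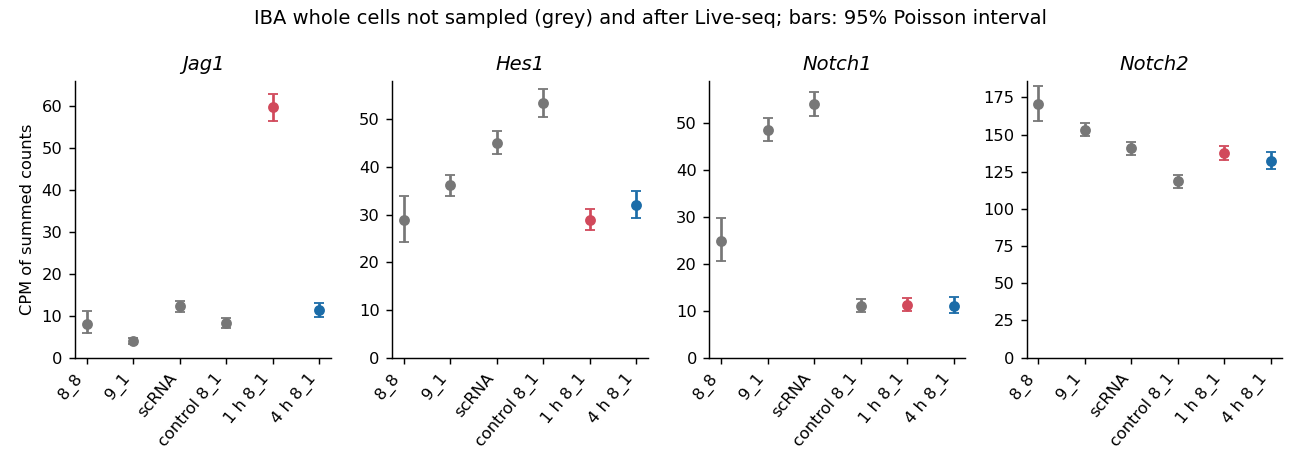
Summed CPM of Jag1, Hes1, Notch1 and Notch2 in IBA whole cells not sampled (grey; batches 8_8, 9_1, scRNA and the control of 8_1), 1 h after Live-seq (red) and 4 h after it (blue), with 95% Poisson intervals as bars. Jag1 at 1 h (59.7 CPM) stands above the unsampled sums, while Hes1, Notch1 and Notch2 after sampling lie within their unsampled ranges.

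Immediate early genes, which respond quickly to many stimuli, went with Jag1 across the cells at 1 h. The list of 12 summed to 1154 CPM in control cells, 1227 CPM at 1 h and 585 CPM at 4 h, with Ier3 as its largest gene at each time. Spearman's rho between Jag1 and the summed list was -0.02 over 70 control cells, 0.60 over 49 cells at 1 h and -0.25 over 43 cells at 4 h. Hes1 had a rho with the list of 0.17, 0.58 and 0.04. Jag1 and Hes1 had a rho of 0.08, 0.31 and -0.18, and at 1 h both had counts in 23 cells, Jag1 alone in 6 and Hes1 alone in 11. Jag1 and Notch2 had a rho of 0.11, 0.39 and -0.12, so the positive rho of Jag1 at 1 h was not confined to the list and Hes1. The rho of Jag1 with the depth of the cell was 0.28, 0.08 and 0.42. These values describe cells of 1 batch and carry no test.

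Mitochondrial share and the sum of the mural list also differed between these groups. The median mitochondrial share of counts per cell was 4.52% in control cells, 8.74% at 1 h and 9.01% at 4 h, beside medians of 3.33%, 9.18% and 6.71% in the unsampled IBA cells of batches 8_8, 9_1 and scRNA. The mural list summed to 948, 2904 and 1284 CPM in control, at 1 h and at 4 h, with Acta2 holding at least 85.9% of it and Kcnj8 at 0 at each time. Macrophage markers had 4.59, 5.35 and 11.4 CPM, with Ptprc, Adgre1 and Itgam at 0 at each time. Endothelial markers had 4.89 to 5.9 CPM, with Kdr, Emcn and Cldn5 at 0. The part of the mitochondrial share, of Acta2 and of the immediate early genes in the Jag1 and Hes1 levels was not tested.

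**Figure D5:**
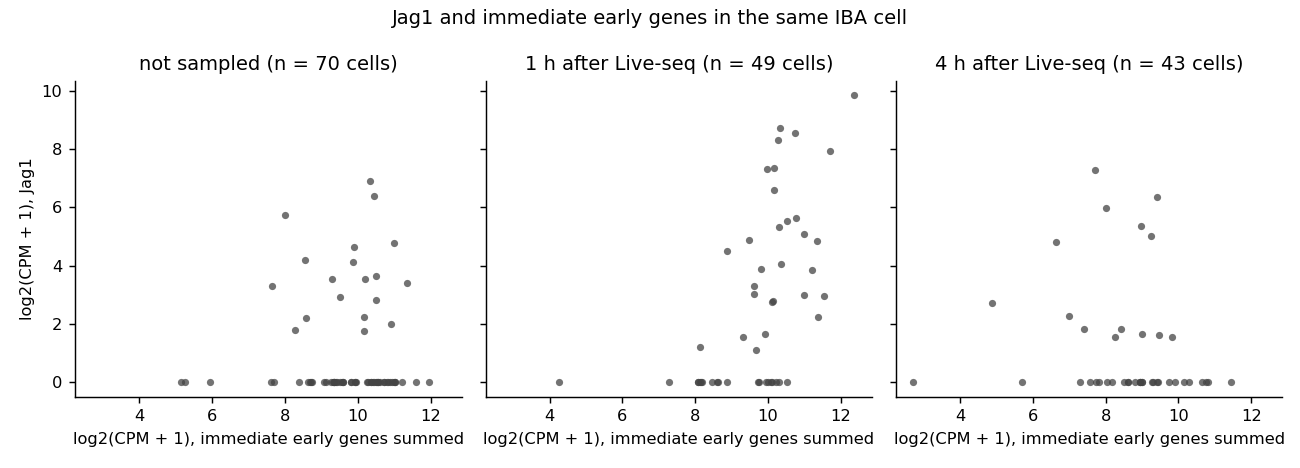
Jag1 against the sum of 12 immediate early genes in the same IBA cell, both as log2(CPM + 1), for cells not sampled (n = 70), 1 h (n = 49) and 4 h (n = 43) after Live-seq, with 1 point per cell. At 1 h, Jag1 and the immediate early sum tend to rise together across cells (rho 0.60), which the other panels do not show (-0.02 and -0.25). The cells with 100 CPM or more of Jag1 at 1 h have immediate early sums from 999 to 5301 CPM, beside 1227 CPM over all cells summed.

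The rest of the pathway was followed in a list of 52 further genes, of which 51 have a row; Hes5 was not analysed here. The list holds Notch4, other ligands, ligand endocytosis factors, proteases, glycosyltransferases, nuclear activators and corepressors, inhibitors and other targets. After LPS in whole RAW cells, 1 of 45 tested genes was called higher and 0 lower (edgeR quasi-likelihood test, adjusted p under 0.05 and a log2 difference over 1), and 13 (28.9%) had an unadjusted p under 0.05, beside 14.7% of all 13399 genes tested. Over all genes tested, 0.940% were called higher and 0.313% lower, 1.25% in all. The gene called was Maml2, which encodes a Mastermind coactivator. It had 0.231, 0.313 and 4.17 CPM in mock and 20.3, 6.91 and 19.5 CPM in LPS-treated cells (8_8, 9_1 and scRNA), with no overlap. The log2 difference was 3.74 ± 0.68 (SE; edgeR adjusted p = 0.040, higher in 3 of 3 batches). Leaving out any one batch ended the call, at edgeR adjusted p from 0.054 to 0.19. Of all 13399 genes tested, 0, 24 and 4 were called without batches 8_8, 9_1 and scRNA. With all batches, the median log2 difference was -0.13 over the list and -0.01 over all genes tested.

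Between IBA and ASPC_Pre whole cells, 2 of 45 genes were called, both lower in IBA cells. Over all genes tested, 7.59% were called lower and 3.77% higher, 11.4% in all. Rbpj, which encodes the DNA-binding partner of the receptors, had 21.7, 11.1 and 16.8 CPM in IBA (8_8, 9_1 and scRNA) and 81.7 and 67.8 CPM in ASPC_Pre cells (8_8 and 9_1), with no overlap. The log2 difference was -2.57 ± 0.28 (edgeR adjusted p = 0.0018, lower in 2 of 2 batches), a 5.95-fold lower level, and the call ended without batch 9_1 (edgeR adjusted p = 0.063). Psen2, a catalytic subunit gene of γ-secretase, had 2.92, 6.17 and 2.89 CPM in IBA and 14.3 and 21.1 CPM in ASPC_Pre cells. Its log2 difference was -2.24 ± 0.56 (edgeR adjusted p = 0.036, lower in 2 of 2 batches), and the call ended without any one batch, at edgeR adjusted p from 0.061 to 0.21. Over all genes tested, 10.5%, 0.381% and 3.29% were called without batches 8_8, 9_1 and scRNA. Without the IBA cell that carried macrophage markers, 5 of 45 genes were called lower, beside 1170 of all 13399 genes tested. With all cells and batches, the median log2 difference was -0.19 over the list and -0.11 over all genes.

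The IBA control cells of batch 8_1, which were not part of that fit, had 48.2 CPM of Rbpj, between the IBA and ASPC_Pre values above. These cells also formed the IBA sum with the lowest Notch1 (11.1 CPM) and the highest Hes1 (53.4 CPM) among unsampled whole cells. Rbpj had 37.8 CPM at 1 h and 35.2 CPM at 4 h after sampling, within the unsampled range of 11.1 to 48.2 CPM.

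By Live-seq, 0 of 42 tested genes of the list were called for LPS against mock and 0 for IBA against ASPC_Pre, by edgeR and by DESeq2 alike. At an unadjusted p under 0.05 there were 3 (7.14%) and 1 (2.38%) in edgeR, beside 4.71% and 4.88% of all genes. DESeq2 had 6 (14.3%) and 1 (2.38%) at that threshold, beside 13.3% and 9.26% of all genes. Over all 11573 genes tested, edgeR called 0 (0%) and 2 (0.0173%), the latter 1 in each direction (0.00864%). Rbpj had 5.57, 20.1 and 9.93 CPM in IBA (7, 8_8 and 9_4) and 12.7 and 47.2 CPM in ASPC_Pre cells (8_8 and 9_4), which overlap. Psen2 had 0, 0.231 and 0.382 CPM in IBA and 8.98 and 17.2 CPM in ASPC_Pre cells, without overlap and without a call (edgeR adjusted p = 1.0).

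After sampling, 1 of 33 listed genes at 10 CPM or more was at least 2-fold higher and 2 were at least 2-fold lower at 1 h, and as many at 4 h, near the background given above for all genes. Aph1b, a γ-secretase subunit gene, had 3.57, 11.4 and 8.61 CPM in control, at 1 h and at 4 h, above the unsampled range of 3.57 to 7.37 CPM at both times. Neurl1a, which encodes a ubiquitin ligase for Notch ligands, had 2.42, 2.08 and 10.9 CPM, below and then above its unsampled range of 2.42 to 7.92 CPM. Dtx3, a member of the Deltex family, had 11.6, 4.66 and 4.65 CPM, below its unsampled range of 11.6 to 31 CPM. Myc, a Notch target in several tissues, had 193, 162 and 74.8 CPM, below its unsampled range of 172 to 293 CPM. Over the 48 listed genes with a count, the median log2 fold was -0.36 at 1 h and -0.12 at 4 h. The medians over all genes with a count were -0.05 and -0.03. Over the 33 listed genes at 10 CPM or more it was -0.36 and -0.24, beside -0.09 and -0.05 over all genes at that level.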

How the data were processed

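The authors deposited raw read counts per gene for 1012 plate-based single-cell libraries, after their own filters on cells. Per the study's methods, 75-base reads were aligned to GRCm38 with STAR 2.6.1c, and reads per gene of Ensembl release 87 were counted without strand by HTSeq 0.10.0, so reads of overlapping antisense genes cannot be told apart. PCR duplicates were not removed by molecular identifiers.

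From the deposited counts, 30340 features were used: 92 genes for ribosomal proteins and 20 seen by the study in its blank libraries were dropped, with a median of 24.2% of the counts. Each sample is 1 cell, so counts were summed over the cells of a batch and state, with at least 3 cells per sum, and batches served as replicates. The labels do not say whether batches were separate cultures or which mouse gave an ASPC, so p-values measure the spread between batches. CPM is the count over the total of kept counts, scaled to 1000000. Genes with at least 2 counts in 15% of cells were tested with edgeR 4.0.16 (quasi-likelihood, TMM, state and batch as terms, Benjamini-Hochberg adjustment), and called at an adjusted p under 0.05 and a log2 difference over 1. The code was tested on simulated data. DESeq2 1.42.0, other filters and leaving out each batch were alternatives. Poisson and binomial intervals are exact, at 95%. Cells were thinned to 100000 counts for comparison of shares, and 31 shallower cells were left out of those. Analyses ran in Python 3.11.15 and R 4.3.3.

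Labels give a shared batch to the states compared. Deviations of same-batch sums from the state means correlated at r = 0.25 to 0.43 for LPS and 0.26 for IBA and ASPC_Pre in whole cells, and at 0.01 to 0.22 and 0.18 by Live-seq.

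The members and gene lists were chosen with earlier results of these data known. Of the other pathway genes, the text names up to 4 called genes per comparison with the largest fold and 1 direction in every batch, up to 4 with the largest fold after Live-seq among those at 10 CPM or more, and others only to give a range or a level of 0; Psen2 and Rbpj by Live-seq were set beside their whole-cell values after these were seen. 1 library did not match the markers of its label and was kept, with counts given without it. Nrarp and Hes5 were not analysed here.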

Additional observations from a re-analysis of the deposited data

Results flagged for a closer look

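Among groups of 4 sums of a member, 14 were examined for a sum far from the others by Dixon's criterion (0.829 of the range). Past it were 3. Chance flags about 1 in 20 groups of normally distributed values, but some of these sums are at or near 0. Hey1 in unsampled IBA whole cells had 2.17 CPM in batch 8_1, from 3 of 70 cells, with 81.1% of the counts from 1 cell. Lfng in unsampled IBA whole cells had 13.5 CPM in batch scRNA. Lfng in LPS-treated RAW-G9 cells by Live-seq had 6.29 CPM in batch 8_8, from 1 cell.

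In data outside the main comparisons, wild-type RAW264.7 cells after LPS had 34.3 CPM of Notch1 and 273 CPM of Jag1 by Live-seq. These came from 2 and 5 of 11 cells, with 69.7% and 43.9% of the counts from a single cell. RAW-G9 cells had no Notch1 count by Live-seq, and their highest Jag1 sum after LPS was 72.7 CPM. Line and batch cannot be told apart.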

How the results depend on the processing

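Maml2, Rbpj and Psen2 kept their direction under every alternative run. The folds of the members, given without a test, did not all do so. After Live-seq, 3 of 40 alternative values at 1 h and 4 of 40 at 4 h had the other sign at 2 decimals: without the top cell, Hey1 at 1 h went from -0.59 to 0.05 and Notch3 at 4 h from -0.52 to 0.18, and the others were of Notch1, at 0.03 and 0.01 as reported. For IBA against ASPC_Pre in whole cells 3 of 42 did so (Notch3 from -0.41 to 0.64 without the replicate block and 0.37 without batch 8_8, Jag1 from 0.24 to -0.43 without batch 9_1). For LPS, 1 of 42 did in whole cells (Notch3 from 0.26 to -2.07 without batch 9_1) and 3 of 35 by Live-seq (Hes1 from 1.42 to -1.0 without batch 6, Notch1 from -0.25 to 0.03 and 0.35 without batches 8_8 and 9_4). No value did for the ASPC induction. Of the other pathway genes, the 2 called between IBA and ASPC_Pre whole cells were 4 with DESeq2, 5 with the edgeR 4 fit, 5 without the IBA cell with macrophage markers (an alternative chosen after seeing the data) and 0 to 2 with each batch left out. Over all genes tested, the shares called there were 15.3% with DESeq2, 18.9% with the edgeR 4 fit and 12.7% without that cell. They were 10.5%, 0.381% and 3.29% without batches 8_8, 9_1 and scRNA. The 1 pathway gene called for LPS in whole cells was 3 with DESeq2, 3 with the edgeR 4 fit, 2 without the filter on low counts and 0 with each batch left out. Over all genes tested, the shares called for LPS were 5.31% with DESeq2, 3.20% with the edgeR 4 fit and 0.980% without the filter. They were 0%, 0.179% and 0.0299% without batches 8_8, 9_1 and scRNA. Without the replicate block for batch, the counts of pathway genes called were 2 for IBA against ASPC_Pre and 0 for LPS in whole cells, and 0 and 0 by Live-seq. The median log2 fold over the members at 1 h after Live-seq, -0.25, was -0.19 as a mean over cells, -0.22 with TMM, -0.19 with all genes kept, 0.03, of the other sign, without the top cell and -0.41 with thinned cells. At 4 h, 0.05 became 0.32, 0.08, 0.03, 0.10 and 0.01 in the same order. The cause of these shifts was not tested.

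Over all genes in whole cells, edgeR called 126 higher and 42 lower for LPS, DESeq2 417 and 295, the edgeR 4 fit 429 in all, and the fit without the block 25 and 10. For IBA against ASPC_Pre, edgeR called 505 and 1017, DESeq2 846 and 1200, the edgeR 4 fit 831 and 1706, and the fit without the block 295 and 612. By Live-seq, DESeq2 called 3.90% of the genes tested for LPS and 1.66% for IBA against ASPC_Pre in both directions together, the edgeR 4 fit 0.00864% and 0.0864%, and edgeR as reported 0% and 0.0173%. Sparse members, few batches per state and sums that rest on single Live-seq cells limit these values, and the experiment after sampling and the ASPC induction have 1 batch per technique.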
